A study of Mus musculus with 2 samples.

Results

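The genes described here encode the ligands, receptors and intracellular transducers of the Wnt, fibroblast growth factor (FGF), bone morphogenetic protein (BMP) and transforming growth factor beta (TGF-beta) pathways, measured in mouse liver RNA. The rule that chose them uses symbols and no signal: it takes every probe set that the platform annotation assigns to 1 gene whose name starts with Wnt, Fzd, Bmp, Fgf, Fgfr or Smad and a digit, together with a fixed list of 20 TGF-beta, BMP and Wnt components. The rule found 101 probe sets of 81 genes, among 12488 probe sets in all and 8251 named genes; the listed gene Tcf7 was not analysed here. The 2 samples, each on 1 single-colour oligonucleotide array, form 1 group, liver total RNA bought from a commercial supplier under a single catalogue number. No treatment, genotype, strain, sex or age is labelled, and the source field names spleen although the titles and the description name liver. Nothing in the labels says that the samples came from separate animals or lots, so the spread between them may be technical.

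Wnt proteins are secreted, lipid-modified ligands that bind a Frizzled receptor together with Lrp5 or Lrp6, and the signal passes through Dishevelled to a complex of Axin, Apc and kinases that otherwise marks beta-catenin for breakdown; stabilised beta-catenin then acts with Tcf and Lef factors on genes, in liver on those of hepatocytes around the central vein. FGFs bind receptor tyrosine kinases, and in liver the gut hormone Fgf15 acts through Fgfr4 on bile acid synthesis. BMPs and TGF-betas bind pairs of serine/threonine kinase receptors that phosphorylate Smad proteins, and BMP signalling in hepatocytes sets the level of the iron hormone hepcidin, encoded by Hamp, while TGF-beta drives matrix production by stellate cells.

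The signal was a linear intensity per probe set in arbitrary units. Replicate 1 had a median of 163.2 over all probe sets and replicate 2 one of 157.7, and both had the same trimmed mean, 500.5, once the outer 2% at either end were removed. Arrays give no count depth, and their number limits the precision of every value. A gene with several probe sets was read from the brightest by mean log2 signal. A background threshold was set at the 95th percentile of 125 genes typical of brain, testis, retina and striated muscle, at 462.0 on replicate 1 and 444.6 on replicate 2; a gene is called above background where it passed on both arrays. The tissue label was checked against markers. All 10 hepatocyte genes were above background, led by Alb (64627 and 65800 on replicates 1 and 2) and Apoa1 (60573 and 69535). Above background were also 5 of 7 Kupffer cell markers (brightest Clec4f, 2408 and 2615, and C1qa, 2542 and 2387), 2 of 7 stellate cell markers (Dcn, 6587 and 7026, and Reln, 687.9 and 672.0) and 1 of 8 endothelial markers (Eng, 3677 and 4026, with Kdr next at 341.5 and 269.9). Of the bile duct markers 0 of 4 passed, the brightest being Cftr (154.2 and 146.8) and Krt19 (87.0 and 58.9), and of the lymphoid and spleen markers 0 of 11, the brightest being Cd4 (337.3 and 503.0) and Cd79a (450.3 and 333.4).

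Most of these signalling genes gave little signal in liver RNA. Of the 81, 8 (9.88%) were above background on both arrays, against 30.9% of all named genes. The 8 were the Wnt pathway genes Dvl1, Ctnnb1, Fzd4 and Lrp6, the FGF pathway genes Fgf1 and Fgfr2, the BMP transducer Smad1 and the protease gene Bmp1. A further gene, Tcf7l2, passed on replicate 2 only, and 72 passed on neither array. The median percentile of the members among all named genes was 27.7, and 21 of the 81 lay above the 50th percentile, 6 above the 75th and 2 above the 90th. The count depends on where the threshold is set: at the 90th percentile of the background genes 13 members passed, against 39.0% of all named genes, and at the 75th percentile 24 passed, against 57.2%. At each of these settings the members' share was below that of all named genes; no test was made, since the labels define a single group. A gene not above background is not thereby absent. In RNA of a whole tissue, fewer cells of a type and less RNA per cell cannot be told apart. Probe brightness depends on probe sequence, so an order of signals is not an order of transcript abundance.

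**Figure D1:**
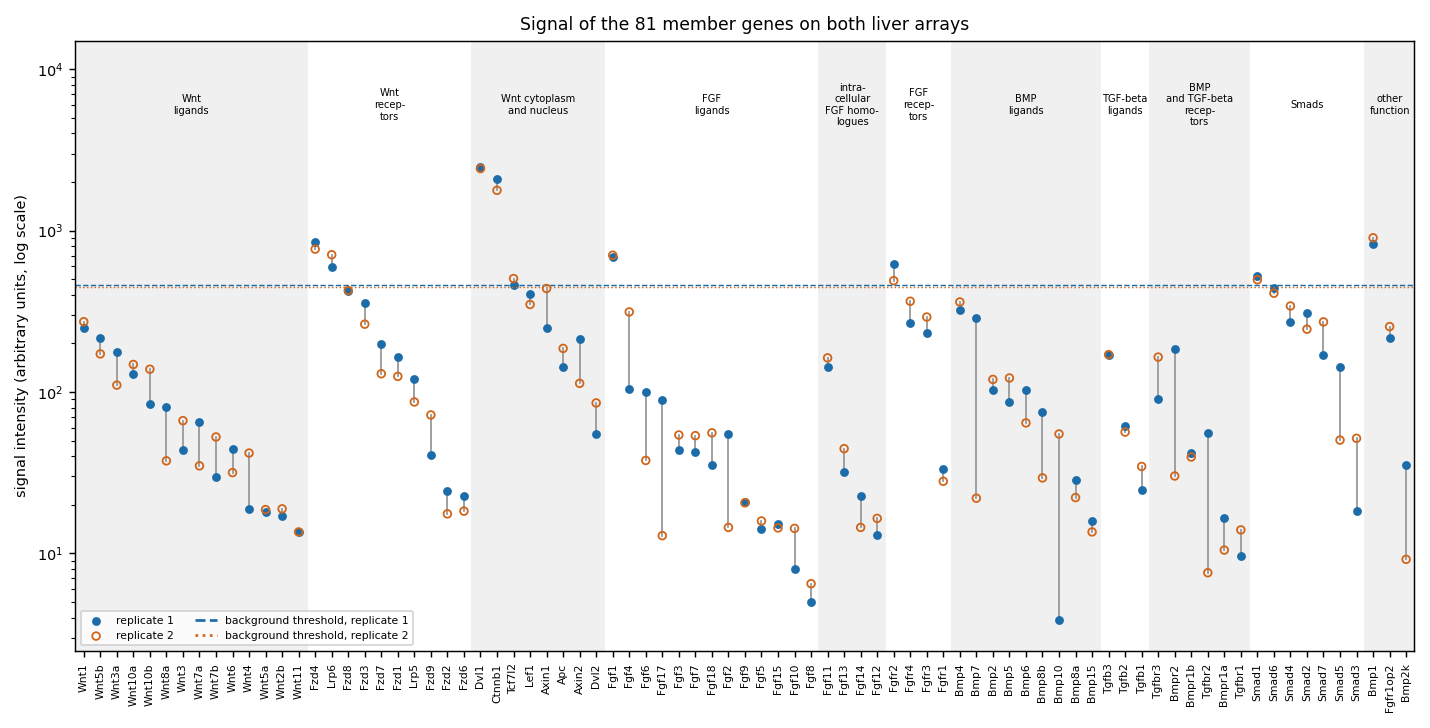
Signal intensity (log scale) of the 81 member genes on replicate 1 (filled points) and replicate 2 (open points), grouped by role, with dashed and dotted lines at the background thresholds of 462.0 and 444.6. Dvl1 and Ctnnb1 stand highest, 6 other genes lie above both lines, and 30 of the 39 secreted ligands lie below 100 on at least 1 array.

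By role, the 39 secreted ligands of all families had a median percentile of 18.9 with 1 of 39 above background, the 20 receptors one of 33.9 with 3 of 20, and the 15 intracellular members (Smads, and the cytoplasmic and nuclear Wnt components) one of 57.9 with 3 of 15. All named genes had a median percentile of 49.7, with 30.9% above background. By pathway, the 32 Wnt genes had a median percentile of 38.7, the 21 FGF genes 16.5, and the 25 BMP and TGF-beta genes 28.8. Most genes of every role were below background, and the medians come from different probes, so they describe where these probe sets lay and do not order the roles. No difference between roles or pathways was tested.

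**Figure D2:**
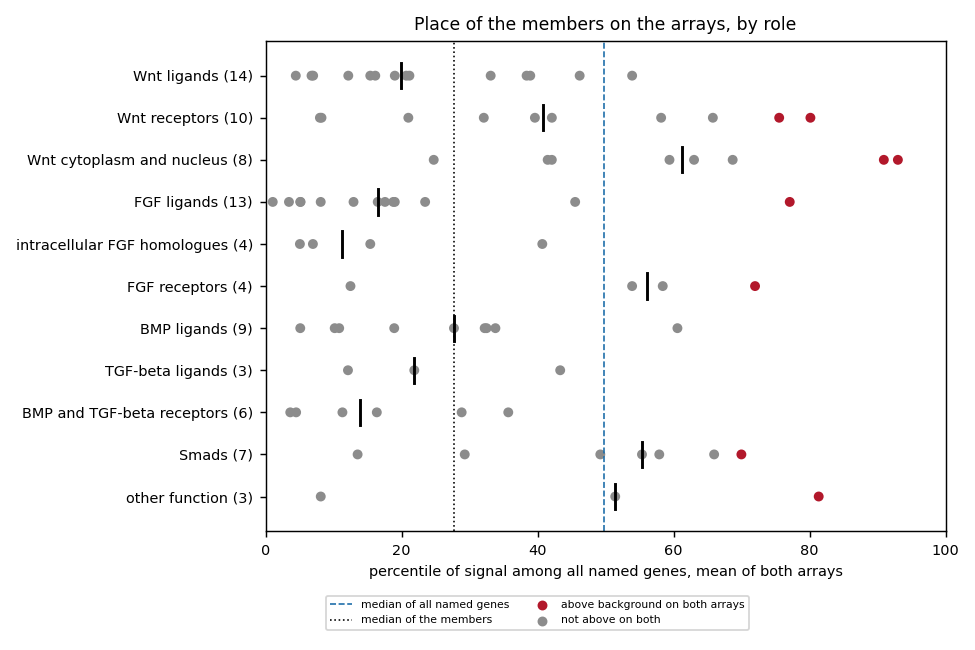
Percentile of each member's signal among all named genes (mean of both arrays, x axis) by role (y axis, number of genes in brackets); red points are above background on both arrays, black bars are the median of the role, and the lines mark the medians of the members (27.7) and of all named genes (49.7). The medians of the ligand groups lie between 16.5 and 27.7, and those of the Smads and of the cytoplasmic and nuclear Wnt genes at 55.4 and 61.2.

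None of the 14 Wnt ligand genes was above background on either array. With the threshold at the 75th percentile of the background genes Wnt1 and Wnt5b passed, and at the 90th they did not. Wnt1, the founding member of the family, gave 247.8 and 272.8 on replicates 1 and 2. Wnt5b gave 214.9 and 172.3, Wnt3a 177.4 and 110.4, and Wnt10a 129.8 and 148.2. The other 10 lay lower: Wnt10b, Wnt8a, Wnt3, Wnt7a, Wnt7b, Wnt6, Wnt4, Wnt5a, Wnt2b and Wnt11 had mean signals from 111.4 down to 13.6. Wnt2 and Wnt9b, which mouse central vein endothelial cells are known to make, were not analysed here.

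Among the Wnt receptors, 2 of 10 were above background (20%), against 30.9% of all named genes. Fzd4, a Frizzled receptor also known from endothelial cells, gave 853.9 and 768.0 (mean 811.0 ± 60.7, SD, n = 2 arrays), and Lrp6, a co-receptor, 593.0 and 708.8 (650.9 ± 81.9). Fzd8 gave 423.4 and 425.2, just under the threshold on both arrays, and Fzd3 357.6 and 263.3. The endothelial markers other than Eng were not above background, and their part in the Fzd4 signal was not tested. The remaining receptors were further down the scale. Fzd7 gave 199.1 and 129.8, Fzd1 165.0 and 125.0, and the second co-receptor, Lrp5, 120.5 and 86.8. Fzd9 gave 40.8 and 72.1, Fzd2 24.5 and 17.6, and Fzd6 22.6 and 18.3.

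The cytoplasmic and nuclear Wnt components held the highest signals of the whole set. Dvl1, a Dishevelled protein that carries the signal from the receptor, gave 2479 and 2423 (2451 ± 39.6), at percentile 93.0, and Ctnnb1, beta-catenin, 2079 and 1776 (1927 ± 214.0), at percentile 90.9. Tcf7l2, a DNA-binding partner of beta-catenin, gave 459.5 on replicate 1, under the threshold, and 504.9 on replicate 2, above it. Lef1, a related factor best known from lymphocytes, gave 404.6 and 348.6. Of the destruction complex, the scaffold Axin1 gave 248.6 and 437.6, Apc 142.2 and 186.3, and Axin2, a feedback scaffold that Wnt signalling induces, 214.5 and 113.2. Dvl2, a second Dishevelled, gave 54.6 and 85.6.

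Of the FGF ligands, Fgf1 was the single gene above background among 13 (7.69%), against 30.9% of all named genes. Fgf1, acidic FGF, which binds all FGF receptors, gave 686.0 and 704.0 (695.0 ± 12.7), at percentile 77.1. Fgf4, best known from the embryo, gave 104.9 and 313.5, below background on both arrays. Fgf6 gave 100.3 and 37.7 and Fgf17 88.7 and 12.9. The signals of Fgf3, Fgf7, Fgf18, Fgf2, Fgf9, Fgf5, Fgf15, Fgf10 and Fgf8 had means from 49.0 down to 5.75. Among them Fgf15, the bile acid hormone that mouse ileum makes, gave 15.3 and 14.4. The 4 intracellular homologues, which are not secreted and act on sodium channels, were all below background: Fgf11 gave 143.7 and 162.8, and Fgf13, Fgf14 and Fgf12 had means of 38.2, 18.6 and 14.8.

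Fgfr2 was the FGF receptor gene above background, at 622.0 and 489.9 (556.0 ± 93.4), a 1.27-fold difference between the arrays. Fgfr4, the hepatocyte receptor for Fgf15, gave 267.0 and 365.1, below the threshold on both arrays and at a mean percentile of 58.4. Fgfr3 gave 233.1 and 291.5, and Fgfr1, which had 1 probe set, of suffix f, 33.2 and 28.0. Fgfr4 passed when the threshold was set at the 75th percentile of the background genes, and not at the 90th.

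BMP and TGF-beta ligands were below background on both arrays in all 12 cases. Bmp4 passed when the threshold was set at the 90th percentile of the background genes, and Tgfb3 when it was set at the 75th. Bmp4 gave 323.5 and 361.4. Bmp2 gave 103.3 and 119.7 and Bmp6 103.0 and 64.4; these are the BMPs that mouse liver endothelial cells supply for hepcidin control. Bmp5 gave 86.9 and 122.2, and Bmp7, a BMP of kidney development, 286.5 on replicate 1 and 22.0 on replicate 2. Bmp8b, Bmp10, Bmp8a and Bmp15 had mean signals from 52.0 down to 14.8. The TGF-beta ligand Tgfb3 gave 170.3 and 170.5, Tgfb2 61.3 and 56.5, and Tgfb1 24.6 and 34.6.

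None of the 6 BMP and TGF-beta receptor genes was above background, and their median percentile was 13.8. Tgfbr3, betaglycan, a co-receptor that presents TGF-beta, gave 90.1 and 164.6. Bmpr2, the type II BMP receptor, gave 183.7 and 30.2, and Tgfbr2, the type II TGF-beta receptor, 56.1 and 7.6. Both differed over 2-fold between the arrays. Of the type I receptors, Bmpr1b gave 41.7 and 39.6, Bmpr1a 16.7 and 10.5, and Tgfbr1 9.6 and 14.0, the low end of the scale. Each of these 6 genes had a single probe set, so no second reading was at hand.

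Of the Smads, 1 of 7 was above background (14.3%), against 30.9% of all named genes. Smad1, a receptor-activated Smad of the BMP branch, gave 522.4 and 496.2 (509.3 ± 18.5). Smad6, an inhibitory Smad that BMP signalling induces, gave 443.5 and 409.4, under the threshold on both arrays. The common partner Smad4 gave 271.2 and 341.3, and Smad2, of the TGF-beta branch, 309.8 and 245.1. Smad7, the inhibitory Smad of the TGF-beta branch, gave 169.2 and 272.1. The BMP-branch Smad5 gave 142.4 and 50.4 and the TGF-beta-branch Smad3 18.4 and 51.7, and both differed over 2-fold between the arrays.

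The rule also took 3 genes that are named for these families but act otherwise. Bmp1, a secreted metalloprotease that trims procollagen and is no BMP, gave 828.3 and 902.8 (865.6 ± 52.7). Fgfr1op2, named for a fusion with Fgfr1, gave 217.7 and 254.5, and Bmp2k, a kinase, 35.2 and 9.2. Without these 3 genes, 7 of the 78 pathway genes were above background.

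Several calls rest on the choice of a probe set. Of the 81 genes 65 had a single probe set and 16 had more, 36 sets in all. In 5 of the 16 some but not all sets were above background, in 11 none was, and in 0 genes did all sets pass. The ratio of the brightest to the dimmest set of a gene, by mean signal, ran from 1.01 (Dvl2) to 90.4 (Fgfr3), with a median of 8.21. The sets that passed are set against the others of the same gene here. Fzd4 passed in a set of suffix s, while its sets of suffix i and r gave 27.0 and 58.9, and 10.4 and 33.6. Lrp6 passed in 1 set, and its other one gave 60.1 and 33.8. Fgfr2 passed in a plain set, against 469.6 and 328.1 in a set of suffix s, which cleared the line on replicate 1, and 69.1 and 34.4 in one of suffix f. The second set of Bmp1 gave 528.6 and 342.8, above the line on replicate 1. Smad1 passed in a set of suffix g, and its plain set, from the same sequence accession, gave 237.3 and 242.7. When the sets of a gene were averaged, Fzd4, Lrp6 and Fgfr2 were no longer above background, and when suffixed sets were left out Fzd4 and Smad1 were not; Fzd8 and Smad6 passed in both settings, where the threshold was lower. The calls of Dvl1, Ctnnb1 and Fgf1 each rest on a single plain set. A suffix f, s, r, i or g marks a set that departs from the usual rules of probe choice on Affymetrix arrays, for example by sharing probes with other sequences. Tcf7l2 gave 459.5 and 504.9 in a set of suffix f and 81.0 and 74.2 in one of suffix s, and Lef1 404.6 and 348.6 in a plain set and 97.4 and 43.3 in one of suffix g. Bmp4 gave 323.5 and 361.4 in a set of suffix s and 5.4 and 50.4 in one of suffix r. Fgfr3 gave 233.1 and 291.5 in a set of suffix i and 3.2 and 2.6 in one of suffix r. Fzd3 gave 357.6 and 263.3 in a set of suffix s and 165.3 and 76.6 in a plain one. Tgfb3 gave 170.3 and 170.5, and 18.1 and 15.3 in its other set. The sets of Fgf11 lay close, at a ratio of 1.05, as did those of Dvl2.

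**Figure D3:**
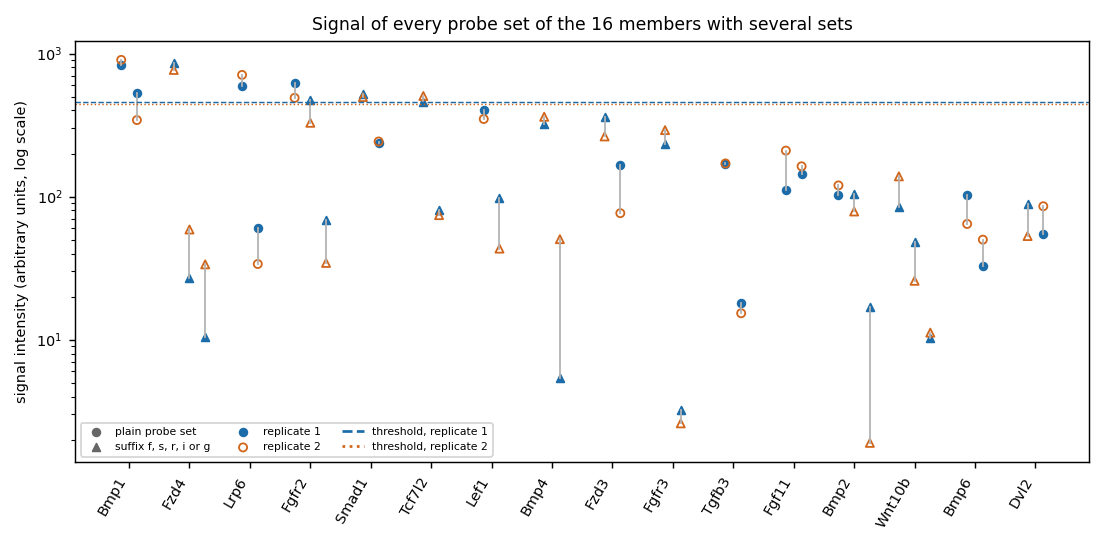
Signal intensity (log scale) of every probe set of the 16 members with several sets, on replicate 1 (filled) and replicate 2 (open); triangles are sets with a suffix, circles plain sets, and the lines the background thresholds. In Fzd4, Lrp6, Fgfr2, Smad1 and Bmp1 a single set lies above both lines and the others of that gene do not.

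The 2 arrays were also set against each other. After subtracting the median difference, 14 of the 81 members (17.3%) differed over 2-fold, against 14.1% of all named genes, a share near that background. All 14 were below the threshold on both arrays. They were Bmp10, Fgf4, Smad3 and Wnt4, higher on replicate 2, and Bmp7, Tgfbr2, Fgf17, Bmpr2, Bmp2k, Fgf2, Smad5, Fgf6, Bmp8b and Wnt8a, lower on replicate 2. The size of these differences is uncertain, since log2(value + 32) left 7 of the 14 and none of them lay among the brighter 50% of genes. Bmp10 gave 3.9 and 55.0, and Bmp7 286.5 and 22.0, each from its only probe set. Before the median difference was subtracted, the 8 genes above background differed by factors of 1.02 to 1.27, with a median of 1.10. Across the 81 members the log2 signals of the arrays had a Pearson correlation of 0.869 and a Spearman correlation of 0.859, against 0.948 and 0.959 across all 8251 named genes; genes are not independent replicates, and the members cover a dimmer range. With 2 arrays of 1 group no difference between them was tested.

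**Figure D4:**
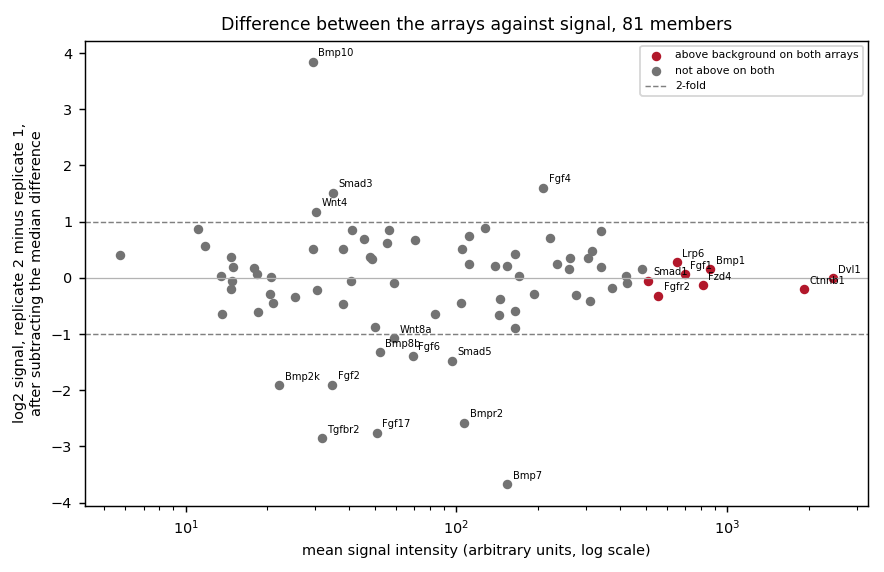
Log2 difference between replicate 2 and replicate 1 (y axis, after subtracting the median difference) against mean signal (x axis, log scale) for the 81 members, with dashed lines at 2-fold. Of the 8 red genes above background, Fgfr2 lies furthest from the middle line, at -0.32, and the 14 genes outside the dashed lines are all dimmer than the threshold.

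Other genes of the same pathways were read from lists of antagonists, kinases, adaptors and further ligands. Of 99 such genes measured, 24 were above background, against 30.9% of all named genes, with 9 of 35 in the Wnt lists, 8 of 22 in the FGF lists and 7 of 42 in the TGF-beta and BMP lists. At the 75th percentile of the background genes 54 of the 99 passed, against 57.2% of all named genes.

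Wnt secretion, antagonists and R-spondin had 0 of 9 genes above background. The 3 with the highest signal were the secreted antagonists Sfrp4 (193.3 and 193.7), Dkk3 (131.0 and 137.7) and Sfrp2 (119.9 and 109.4). Of further receptors, kinases and catenins 5 of 16 passed, a share near that of all named genes: Gsk3a, a glycogen synthase kinase that marks beta-catenin (3431 and 4033), the catenin Ctnnd1 (1467 and 1702), and the casein kinases Csnk1d (1352 and 1339), Csnk1a1 (1075 and 931.3) and Csnk2a1 (494.6 and 605.9). Among 10 nuclear factors 4 passed (40%), against 30.9% of all named genes. They were the corepressor-family gene Tle5 (6943 and 6565), the corepressor Ctbp1 (869.7 and 691.5), the beta-catenin inhibitor Ctnnbip1 (743.2 and 464.3) and the Tcf factor Tcf7l1 (469.6 and 537.6).

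Of 11 FGF co-receptors and heparan sulfate genes 3 passed (27.3%), a share near the 30.9% of all named genes. All were syndecans, cell surface proteoglycans that bind FGFs: Sdc2 (1054 and 1197), Sdc4 (859.6 and 746.4) and Sdc1 (702.8 and 686.4). Klb, the partner of Fgfr4, was not analysed here. The cytoplasmic and feedback list had 5 of 11 above background (45.5%), against the same 30.9%. These were Etv4, a transcription factor read from a set of suffix r (605.0 and 680.7), the adaptors Grb2 (660.8 and 610.8) and Shc1 (520.9 and 525.3), the kinase Map2k2 (486.6 and 647.2) and the ERK phosphatase Dusp6 (515.7 and 529.7).

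Among 14 other ligands of the TGF-beta superfamily, Inhbc, an activin subunit known for its liver expression, passed with 1594 and 1808. The next were Inhbe (405.3 and 274.2), another activin subunit of liver, and Lefty1 (247.6 and 132.8), a Nodal inhibitor. Of 7 other receptors Eng, the endothelial co-receptor, passed, followed by the endothelial type I receptor Acvrl1 (280.5 and 315.7) and the activin receptor Acvr2a (245.0 and 226.5). Of 12 antagonists and latency proteins, Ltbp4 (914.8 and 1060) and Ltbp3 (515.1 and 473.6), which hold latent TGF-beta in the matrix, passed, with the BMP modulator Twsg1 next (333.7 and 221.6). Of 9 Smad regulators 3 passed (33.3%), a share near the 30.9% of all named genes. They were Tob1, an antiproliferative protein (1920 and 1869), Fkbp1a, which binds type I receptors (1639 and 1339), and the ubiquitin ligase Nedd4l (824.1 and 810.4, a set of suffix f).

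**Figure D5:**
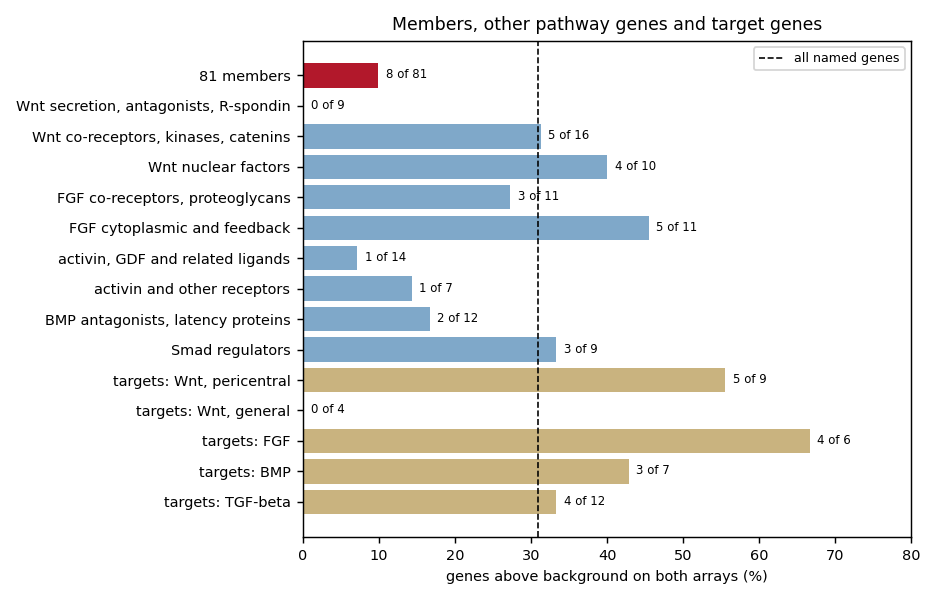
Share of genes above background on both arrays (x axis, percent; counts beside the bars) for the 81 members (red), for lists of other pathway genes (blue) and for lists of genes known as targets (tan), with a dashed line at the 30.9% of all named genes. The members' bar ends at 9.88%, and the bars of the FGF targets (4 of 6) and the pericentral Wnt targets (5 of 9) are the longest. The lists were written with earlier results of these data known.

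Genes known to respond to these pathways were described last. Many of them also answer to other inputs, so their level does not measure the activity of a pathway. Of the 33 targets measured that are not members, 16 passed (48.5%), against 30.9% of all named genes, and no test was made. The target lists were written with earlier results of these data known, and they hold genes known from liver. A share above that of all named genes is therefore no evidence on the pathways. Of 9 pericentral genes that depend on beta-catenin in mouse liver 5 passed: Cyp2e1, an ethanol-oxidising cytochrome P450 (46149 and 53252), Cyp1a2, a caffeine-oxidising one (17731 and 17308), ornithine aminotransferase Oat (7413 and 8383), the secreted protein Lect2 (3262 and 3071) and glutamine synthetase Glul (749.0 and 622.9). Of the general Wnt targets 0 of 4 passed, the 3 highest being Lef1, cyclin D1 Ccnd1 (295.7 and 241.3) and Axin2, of which Lef1 and Axin2 are also members. Of the 6 FGF targets 4 passed, which were Cyp8b1 (6069 and 6072) and Cyp7a1 (566.1 and 520.2), enzymes of bile acid synthesis that Fgf15 represses, the repressor Nr0b2 (1309 and 1033) and Dusp6.

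Of 7 BMP targets 3 passed (42.9%), against 30.9% of all named genes. These were Hamp (11002 and 9506) and the helix-loop-helix inhibitors Id2 (2386 and 2518) and Id3 (672.3 and 638.3), while Smad6 and Smad7 of the members did not pass. Id1 gave 150.0 and 262.4. Of 12 TGF-beta targets 4 passed (33.3%), a share near the 30.9% of all named genes. They were fibronectin Fn1 (3706 and 3929), collagen Col1a2 in a set of suffix r (1493 and 1402), the cell cycle inhibitor Cdkn1a (731.1 and 758.9) and the protease inhibitor Timp1 (529.9 and 745.5).

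The sequences before the starts of a BMP target and of a Wnt target are shown because their motifs are the ones through which the Smads and the Tcf and Lef factors of the member list are known to bind DNA. They are the 250 bases before the RefSeq start (GRCm38.p6), read on the gene's strand, which is the minus strand for both. Hamp covers chr7:30944030-30944279 and Lect2 chr13:56548539-56548788. Capitals mark GGCGCC, a motif of BMP-activated Smads that reads the same on both strands, in Hamp, and CTTTGAT or its reverse complement ATCAAAG, a motif of Tcf and Lef factors, in Lect2.
Hamp: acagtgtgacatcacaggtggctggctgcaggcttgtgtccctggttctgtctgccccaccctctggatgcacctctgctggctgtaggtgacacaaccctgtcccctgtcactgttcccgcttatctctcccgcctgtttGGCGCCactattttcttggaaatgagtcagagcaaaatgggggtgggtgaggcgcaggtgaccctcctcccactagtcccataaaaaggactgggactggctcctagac
Lect2: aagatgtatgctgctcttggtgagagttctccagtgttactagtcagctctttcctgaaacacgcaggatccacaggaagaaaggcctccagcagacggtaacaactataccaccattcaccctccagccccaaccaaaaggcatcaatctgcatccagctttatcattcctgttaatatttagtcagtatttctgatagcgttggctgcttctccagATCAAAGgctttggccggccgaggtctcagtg
The match in Hamp begins 109 bases before the start, and the one in Lect2, in the orientation ATCAAAG, 32 bases before it. Hamp and Lect2 are single genes of their target lists. The windows of the other targets are not shown, so these matches do not describe the lists. Of all 32851 windows of this length in the table, 9.59% held GGCGCC and 3.21% held CTTTGAT on either strand. A match is a description of the letters in the window and was not tested as a binding site; no array value here bears on the binding of a factor.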

How the data were processed

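Liver total RNA was measured on 2 arrays, replicates 1 and 2 of 1 group taken from the titles. What the authors deposited is the signal intensity of each Affymetrix probe set, on a linear scale and in a single colour; their software, scaling step and detection calls are not stated in any label. No scanner file was analysed, so low signals could not be corrected anew. In the platform annotation 10855 probe sets had 1 gene, 396 had several and 1237 none. The 66 control sets were left out, and 10833 probe sets with 1 gene were used. Of the 10855, 10839 matched RefSeq GRCm38.p6 by gene identifier, with 0 symbols changed. All 81 members matched.

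The rule for the members uses symbols and no signal, but it and the gene lists were written with earlier results of these data known. All members are named, with both values for those above background, all receptors and intracellular members, and those whose probe sets disagree. Of each other list, the 3 brightest genes and all above background are named, and of each marker list the 2 brightest.

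The threshold used 125 of 140 listed background genes, and 6 of them passed it on both arrays. Of these, Pvalb, Pcp2, Tnp1 and Crybb2 were read from suffixed sets. The threshold thus rests in part on such sets, and without them it was 312.9 on replicate 1 and 317.5 on replicate 2. Differences are log2 ratios of replicate 2 over replicate 1, less their median over named probe sets (-0.03). No test was made. Alternatives changed the probe set rule, the suffixed sets, the threshold, the normalization (quantile), a filter (brighter 50%), the pseudocount (32) and the replicates. The code was also run on simulated arrays, whose noise was set lower than the spread between these arrays. That run checks the code and does not bear on the results. Computations ran in Python 3.11.15 with pandas 2.3.3, numpy 2.4.6 and scipy 1.17.1, and plots were drawn with matplotlib 3.10.9.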

Additional observations from a re-analysis of the deposited data

How the results depend on the processing

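When the probe sets of a gene were averaged, 7 members were above background, against 32.1% of all named genes. Of these 7, 5 were among the 8 of the main setting. Without suffixed sets 9 of 74 passed, against 36.6%, and 6 of them were among the 8. Quantile normalization left 8, against 30.9%. These counts stayed within 1.5 times of 8. The brighter 50% also held 8, but that filter kept the thresholds and removed dim genes only, so it could not lower the count. With replicate 1 or 2 left out the count was 9 or 8, against 33.1% and 32.6%. A gene then needed 1 pass instead of 2, so the count could not fall. The count was 13 and 24 with the threshold at the 90th and 75th percentile, against 39.0% and 57.2% of all named genes. The mean of probe sets dropped Fgfr2, Fzd4 and Lrp6 and added Fzd8 and Smad6; leaving out suffixed sets, which left 74 members, dropped Fzd4 and Smad1 and added Fzd8, Lef1 and Smad6. In these 2 settings the threshold itself was lower (309.9 and 312.9 on replicate 1). Tcf7l2 was added on replicate 2 alone. The other pathway genes above background numbered 54 at the 75th percentile, and 26 when either replicate was left out, where their count could not fall either. The median percentile of the members, 27.7, was 23.9 to 28.4 on a single array and 31.6 among the 21 members in the brighter 50%, ranked within that part. The median of the members' mean signals, 83.7, was 64.4 to 88.7 on a single array, 57.3 with the mean of probe sets and 424.3 in the brighter 50%, which by construction holds no dim gene. The 14 members over 2-fold became 7 with log2(value + 32) and 0 in the brighter 50%. With the mean of probe sets 13 of 81 member signals moved by more than 1 SD between the arrays. All 13 were among the 16 genes with several sets, since the 65 genes with a single set could not move. Without suffixed sets 2 of 74 moved, Fzd3 and Smad1. Only these were read from a suffixed set and also had a plain one, so no other reading could change. No paired analysis was possible because there is 1 group only. Dim signals limit the reading of 72 members, since a level below the threshold is not set apart from the levels of the background genes. These dim signals still repeated in part. Across the 73 members not above background on both arrays, log2 signals had a Pearson correlation of 0.801 and a Spearman correlation of 0.807.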

Other observations

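Some members lie next to each other in the genome, with no other protein-coding gene of the RefSeq table between their starts. The array held 5 such pairs, made of 9 genes. In each pair the signals are given on replicates 1 and 2. Wnt6 gave 44.6 and 31.7, and its neighbour Wnt10a 129.8 and 148.2. Wnt10b gave 84.2 and 138.5, and its neighbour Wnt1 247.8 and 272.8. Fgf3 gave 43.7 and 54.2, Fgf4 104.9 and 313.5, and Fgf15, on the other side of Fgf4, 15.3 and 14.4. Smad3, of the TGF-beta branch, gave 18.4 and 51.7 and its neighbour, the inhibitory Smad6, 443.5 and 409.4. None of these 9 genes was above background on either array.

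Fgf1 was above background as 1 of the 39 secreted ligands among the members, and it differed by a factor of 1.03 between the arrays. Tgfb1, a ligand that platelets and macrophages are known to make, gave 24.6 and 34.6 in its only probe set, below background on both arrays. Of the member probe sets, 2 of 22 with a suffix and 6 of 79 plain ones were above background, against 25.8% of all probe sets of named genes.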
